A study of Caenorhabditis elegans with 2 samples.

Results

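The CEC-7 peaks on chromosome IV of Caenorhabditis elegans are described here. They are all 434 entries of the deposited peak list that name IV as their chromosome, of 2767 on the 6 nuclear chromosomes, or 15.7%. The list comes from 1 chromatin immunoprecipitation sequencing (ChIP-seq) library with a rabbit polyclonal antibody to CEC-7. The worms were fem-2(b245) hermaphrodites at the young adult stage, with a germline, grown at 20 degrees Celsius. The labels call them young adults, while the growth protocol describes cultures grown to gravid adults, and which holds was not checked. 1 library of input DNA from worms of the same genotype and stage accompanies the ChIP library, and its values were not analysed here. Both libraries carry the allele, so no wild-type worm stands beside them. There is 1 ChIP library, labelled replicate 2, which leaves every value without a replicate error, and no conditions could be compared. The chromatin came from whole worms, in which few cells with strong binding and many cells with weak binding cannot be told apart. A peak list holds no expression, so the labelled stage and germline were not checked against markers. The depth of sequencing is not stated in the labels or the file, and sites below the caller's threshold are not in the list.

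CEC-7 is a chromodomain protein, a class named for a fold that in many of its members binds methylated lysines on histone tails. The fem-2 gene encodes a protein phosphatase that promotes male development, including spermatogenesis. Chromosome IV has a particular gene content in this species. It carries nearly all genes for piRNAs, also called 21U-RNAs, which are short RNAs bound by the germline Argonaute PRG-1 that recognise foreign and transposon transcripts. Most of these genes are tiny, separately transcribed units, crowded in a pair of broad regions, between and within protein-coding genes. IV also carries many genes for major sperm proteins and histones. Nematode chemoreceptor genes, counted by name, number 152 on IV and 1139 on the other chromosomes, so they are not particular to it.

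The peaks on IV covered 1003683 bases, 5.74% of the chromosome. The middle peak by width measured 1841 bp. Widths lay between 1373 and 2769 bp for the central 50% of peaks and ran from 982 to 9611 bp in all. The score of a peak is the authors' own value, of unstated scale, and is used below to rank, filter and compare peaks. Strong and weak, said of peaks, refer to this score and not to the amount of binding. On IV it had a median of 108.19, quartiles of 69.45 and 187.76, and extremes of 50.25 and 1147.85. The median score was 124 on I, 136 on II, 147 on III and 103 on V, so IV stood in the lower part of the autosomes' order. These differences between chromosomes were not tested. Score and width went together across the 434 peaks (Spearman rank correlation 0.738, a description over peaks from 1 library whose scores and widths come from the same caller).

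Genes were placed at peaks by their spans. A gene counted as at a peak when its span, from the first to the last annotated base, lay within 500 bp of one. That tolerance allows for the small difference in positions between the assembly of the peaks (WormBase WS220) and that of the gene table (RefSeq, WBcel235). The table gives no strand, so starts and ends of genes were not told apart. Nearly every peak on IV lay at a protein-coding gene. Of the 434 peaks, 426 (98.2%) had a protein-coding span within 500 bp, and 415 midpoints (95.6%, exact 95% interval 93.2 to 97.3%, counting error only) fell inside such a span. Protein-coding spans made up 59.3% of the bases of IV but held 96.0% of the bases in peaks. A single protein-coding gene was touched by 321 peaks (74.0%), and 105 peaks (24.2%) touched 2 or more. Of all 434, 277 peaks (63.8%) lay wholly inside 1 gene span.

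Seen from the genes, a minority was bound. Of 3281 protein-coding genes on IV, 528 were at a peak, which is 16.1% (exact 95% interval 14.9 to 17.4%). Over all 6 nuclear chromosomes the share was 17.5%, and over the 5 other than IV it was 17.8%. Single chromosomes ranged widely, with 37.2% on III, 29.6% on I, 21.3% on II, 8.03% on V and 0.183% on X. IV therefore lay between II and V, and its exact interval overlapped with that of neither. Neighbouring genes are not independent, so these intervals are too narrow, and no test between chromosomes was made. Genes at peaks were side by side: the next protein-coding gene along IV was also at a peak in 57.8% of cases, against 8.10% after a gene that was not. A peak can touch adjacent genes at once, which is part of this count by construction. Of the 449 genes whose span a peak overlapped without the tolerance, peaks covered a median of 62% of the span, and 51 spans lay wholly within peaks.

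Long genes were at peaks more often than short ones. The median span was 2913 bp for genes of IV at a peak and 1875 bp for the others. On IV, 46 of 676 genes under 1 kb (6.80%) were at a peak, and 84 of 260 genes over 8 kb (32.3%). The classes between had 12.4% at 1 to 2 kb, 18.2% at 2 to 4 kb and 24.1% at 4 to 8 kb. A long span has more bases in which a peak can fall, so length must be kept in view wherever gene groups are compared below. Within each length class IV again lay between II and V.

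**Figure D1:**
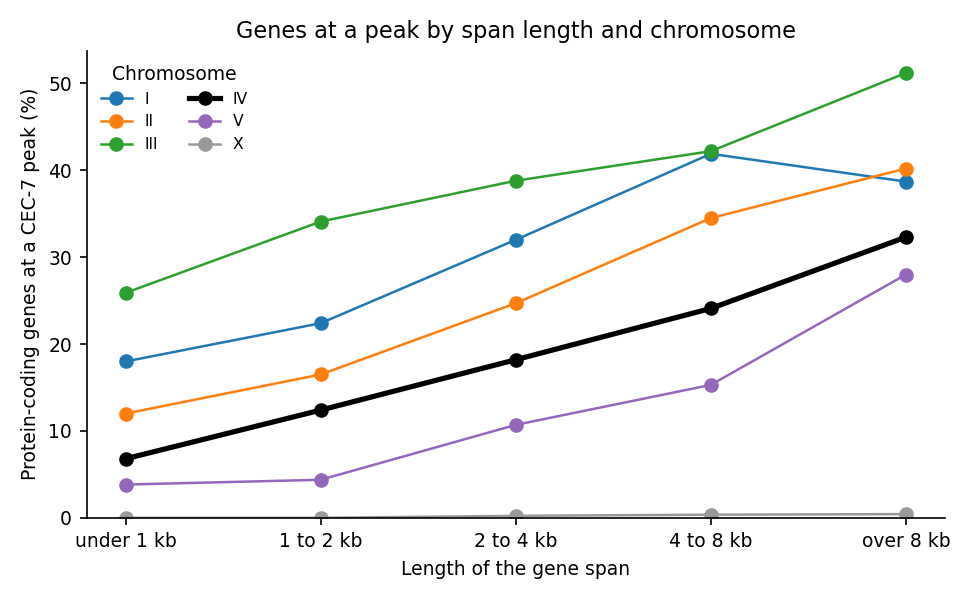
Share of protein-coding genes at a CEC-7 peak (y axis, percent) by length of the gene span (x axis, 5 classes), 1 line per chromosome. The line of IV climbs from 6.80% to 32.3% and stays below those of I, II and III and above those of V and X in every class.

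Along IV the peaks formed a broad rise toward the right of the centre and then a steep drop. Counted by midpoint in 1 Mb bins, 23 peaks lay in the first Mb, 40 in the second, 19 in the third and 12 in the fourth. Between 4 and 7 Mb the bins held 25, 16 and 22 peaks. From 7 to 11 Mb they held 30, 42, 24 and 30. The fullest bins came next, with 44 peaks from 11 to 12 Mb and 51 from 12 to 13 Mb, where 28.4% and 31.3% of protein-coding genes were at a peak. The bin from 13 to 14 Mb still held 30 peaks, and those from 14 to 15 and from 15 to 16 Mb held 3 each. The last complete bin held 9 and the final 0.494 Mb held 11. The peaks of the second Mb were many, narrow and weak, with a median width of 1405 bp and a median score of 77.4, against 2187 bp and 116.3 from 11 to 12 Mb. Those of the third Mb were fewer but as narrow and weak, with medians of 1369 bp and 78.2. The first peak began at IV 120195 and the last ended at IV 17460853, so no peak was listed at the very ends.

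**Figure D2:**
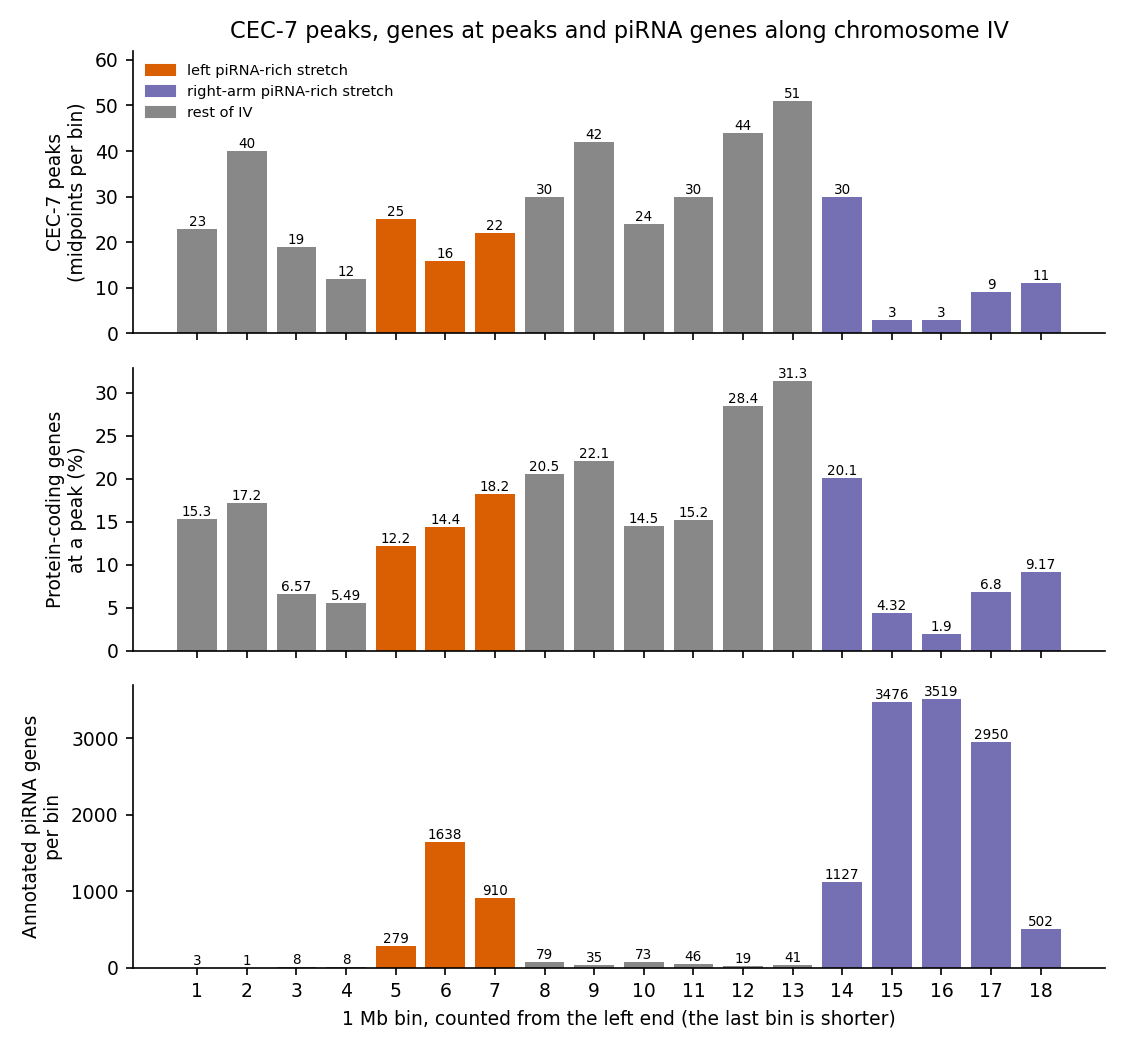
Peaks, protein-coding genes at a peak (percent) and annotated piRNA genes in 18 bins of 1 Mb along IV, counted from the left end, with the piRNA-rich stretches coloured. Bins 15 and 16 hold 3 peaks each and 3476 and 3519 piRNA genes, whereas bins 12 and 13 hold 44 and 51 peaks and 19 and 41 piRNA genes.

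The drop coincided with the piRNA-rich stretch of the right arm. A piRNA-rich stretch was taken as a run of 1 Mb bins with at least 100 annotated piRNA genes each. There were 2 such runs, IV 4000001 to 7000000 with 2827 piRNA genes and IV 13000001 to 17493829 with 11574. Together they held 97.9% of the 14714 piRNA genes on IV, which in turn are 95.8% of the 15363 in the table. In the right-arm stretch 56 peaks were listed, a density of 12.5 per Mb with 95% limits of 9.41 and 16.2 from an exact Poisson interval. The remainder of IV had 29.1 per Mb, so the ratio was 0.429 (exact 95% interval 0.318 to 0.569). The left stretch had 63 peaks, at 21 per Mb (16.1 to 26.9). Bases in peaks were 2.44% of the right-arm stretch, 5.29% of the left one and 7.35% of IV outside both. Because peaks cluster, these intervals, which cover counting error only, are too narrow.

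On a finer scale, the edge of the peak-poor region was a step between neighbouring bins of 0.5 Mb, though such a step was not particular to it. From 13 to 13.5 Mb there were 23 peaks and 11 piRNA genes, and 32 of 113 protein-coding genes (28.3%) were at a peak. In the next 0.5 Mb there were 7 peaks and 1116 piRNA genes, and 6 of 76 protein-coding genes (7.89%) were at a peak. A similar step lay where piRNA genes were few. From 10.0 to 10.5 Mb there were 24 peaks, 21 piRNA genes and 22.6% of protein-coding genes at a peak. From 10.5 to 11.0 Mb the values were 6, 25 and 6.84%. In the left stretch, the bin from 5.5 to 6.0 Mb had 978 piRNA genes and 17.6% of protein-coding genes at a peak. From 15.5 to 16.0 Mb no peak was listed and there were 1915 piRNA genes, the highest number of any such bin. When the stretch was started at 13.5 Mb, by bins of 0.5 Mb with at least 50 piRNA genes, the ratio to the remainder of IV was 0.278. Beyond 14 Mb, 26 peaks were listed over 3.49 Mb, a density of 7.44 with exact limits of 4.86 and 10.9 per Mb, and 25 of 456 protein-coding genes (5.48%) were at a peak.

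The stretches also differed from the rest of IV in gene density. Protein-coding genes numbered 144 per Mb in the right-arm stretch, 197 in the left one and 204 in the rest of IV. Peaks per 1000 protein-coding genes were 86.8, 107 and 154 in the same order. The share of protein-coding genes at a peak was 9.77% (63 of 645), 14.7% (87 of 591) and 18.5% (378 of 2045). A low share was not limited to piRNA-rich bins: from 2 to 3 and from 3 to 4 Mb it was 6.57% and 5.49%, with 8 piRNA genes in each bin. The right-arm stretch is also the end of a chromosome arm, so its piRNA content and its place on the arm cannot be told apart here. Peaks of the right-arm stretch had a median score of 107.0, those of the left stretch 120.0 and those elsewhere on IV 105.5, with quartile ranges that overlapped.

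The piRNA genes themselves were almost never at a peak. Of the 14714 on IV, 13 lay within 500 bp of a peak, or 0.0884% (exact 95% interval 0.0471 to 0.151%), although 7.94% of the bases of IV lay that close. The piRNA genes are crowded and some of the 13 share a peak, so this interval, which covers counting error only, is too narrow. Only 10 of the 13 were inside a peak, and 4 remained when each peak was trimmed by 500 bp on both sides. Over the 6 nuclear chromosomes 0.325% of piRNA genes were at a peak, and among the 649 outside IV, 37 were (5.70%). Within the right-arm stretch 5 of 11574 (0.0432%) were at a peak, against 3.59% of its bases. Within the left stretch 2 of 2827 (0.0707%) were, against 7.13%. The scattered piRNA genes outside both stretches had 6 of 313 at a peak (1.92%), against 10.1% of the bases there. Part of this pooled contrast lay between bins: from 13 to 13.5 Mb there were 23 peaks but only 11 piRNA genes. In every 1 Mb bin of both stretches, the share of piRNA genes at a peak was below the share of bases in peaks. It was 1 of 1638 against 4.12% from 5 to 6 Mb, and 4 of 1127 against 5.64% from 13 to 14 Mb. Separation within smaller windows was not tested.

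Of the piRNA genes, 37.1% lay inside protein-coding spans over the whole of IV. The share was 32.7% in the right-arm stretch, 53.2% in the left one and 55.0% in the rest of IV. Most peaks lay inside such spans, so the bases were also divided by protein-coding span. Inside such spans in the right-arm stretch, 6.59% of bases but 1 of 3785 piRNA genes (0.0264%) lay within 500 bp of a peak. Outside the spans the values were 0.889% of bases and 4 of 7789 piRNA genes (0.0514%). In the left stretch, 10.8% of bases inside spans and 1 of 1503 piRNA genes (0.0665%) lay that close. The shortage of piRNA genes at peaks was therefore present on both sides of the division in the right-arm stretch. Outside spans in the left stretch it was 1.73% of bases and 1 of 1324 piRNA genes (0.0755%).

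By the median, piRNA genes also lay farther from peaks than bases did in both stretches. In the right-arm stretch these distances include the long gaps described below, so they are not a separate result. In the right-arm stretch the nearest peak was a median of 86.1 kb from a piRNA gene, 57.1 kb from a base and 37.5 kb from a protein-coding gene. Within 5 kb of a peak lay 1.29% of piRNA genes, 11.1% of bases and 21.1% of protein-coding genes. In the left stretch the medians were 32.7, 22.5 and 17.6 kb, and within 5 kb lay 4.99% of piRNA genes, 19.1% of bases and 28.8% of protein-coding genes. Within 100 kb of a peak lay 96.6% of piRNA genes and 97.0% of bases of the left stretch, and 52.9% and 67.4% of those of the right-arm stretch. In the left stretch the order was reversed within 79433 bp, with 93.1% of piRNA genes and 92.1% of bases.

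**Figure D3:**
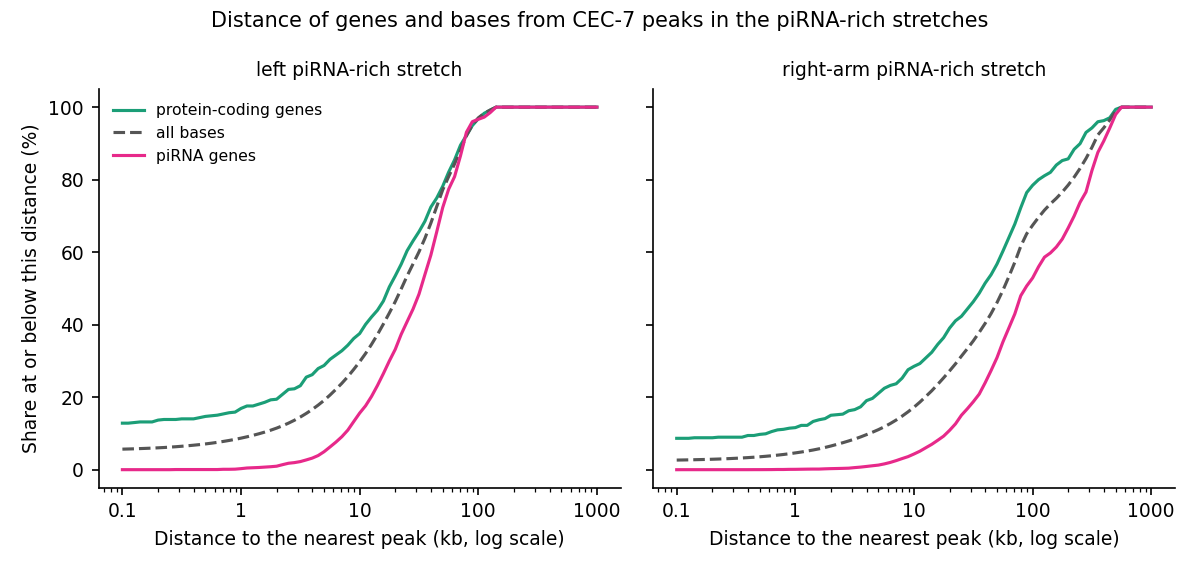
Cumulative share (y axis, percent) of piRNA genes, all bases and protein-coding genes that lie within a given distance of the nearest peak (x axis, kb, log scale), in the left and the right-arm piRNA-rich stretch. In both panels the piRNA curve runs below that of all bases at short distances, with 4.99% against 19.1% (left) and 1.29% against 11.1% (right) within 5 kb.

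Protein-coding genes at peaks in the stretches rarely contained piRNA genes. In the right-arm stretch, 2 of the 63 genes at a peak (3.17%) had a piRNA gene inside their span, against 271 of the 582 others (46.6%). Of these 63 genes, 32 lay from 13 to 13.5 Mb, where there were only 11 piRNA genes in all. Position along the stretches was not held fixed in these comparisons, so it is part of the contrast. In the left stretch it was 5 of 87 (5.75%) against 184 of 504 (36.5%). In the right-arm stretch the median span was 3813 bp for genes at a peak and 1795 bp for the others. Among genes of 2 kb or more, the shares were 2 of 47 (4.26%) against 174 of 269 (64.7%) on the right arm and 5 of 64 (7.81%) against 128 of 233 (54.9%) in the left stretch. The right-arm exceptions were pik-1, which encodes a kinase of the IRAK and Pelle family, and Y116A8C.10, each with 1 piRNA gene. The exceptions on the left were C06E7.2 with 9 piRNA genes, tni-4, a troponin I gene, with 7, elo-5, a fatty acid elongase gene, with 6, and lin-45, the RAF kinase gene, and T05A12.4 with 1 each. Of these, elo-5 and T05A12.4 were at a peak within the tolerance only. C06E7.2 and tni-4 were no longer overlapped when peaks were trimmed by 500 bp.

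The 13 piRNA genes at peaks can be named. On the right arm 21ur-6955, 21ur-8362 and 21ur-1151 lay at the same weak peak, IV 13684996 to 13686707 (score 81.81), and 21ur-15591 lay at a peak of pik-1 (86.18). The fifth, 21ur-1490, adjoined the peak at IV 15373605 to 15375016 (123.46), the last before the longest gap of the chromosome. In the left stretch, 21ur-12572 lay in the span of lin-45 at a peak with a score of 376.54, and 21ur-11261 lay just beyond a peak with a score of 131.72. The other 6 were scattered piRNA genes between 7 and 13 Mb. They included 21ur-14978 in tag-321, 21ur-15312 in copb-2, which encodes a coatomer subunit, and 21ur-12575 in mars-1, a methionyl-tRNA synthetase gene. The peaks there scored 597.33, 319.72 and 261.67.

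The gaps between peaks showed the same geography. The list left 433 gaps on IV with a median of 9019 bp, and 46 of them exceeded 100 kb and together made up 53.5% of the chromosome. The longest ran from IV 15375017 to 16427579, 1.05 Mb, the next from IV 14076766 to 14788030, 711 kb. The longest gap was 0.586 Mb on I, 0.559 on II, 0.209 on III, 1.00 on V and 8.45 on X. These 2 gaps of IV held 3603 and 2456 piRNA genes, together 41.2% of those on IV, at 3423 and 3453 per Mb. They were not empty of protein-coding genes, of which they held 94 and 100. The first included 15 chemoreceptor genes of the srv, srw, srz and srh families and the transcription factor genes hlh-17, hlh-31 and hlh-32. It also included the general transcription factor gene gtf-2H4 and jac-1, the p120 catenin gene. The second included dld-1, the dihydrolipoamide dehydrogenase gene, cfp-1, a CXXC protein gene of the H3K4 methylation machinery, mrps-7, and tra-3, a calpain gene of sex determination. Neither gap held a gene of the ribosomal, splicing, meiosis, piRNA pathway or chromodomain lists, mrps-7 of the mitochondrial ribosome aside. These lists were made by gene name, and cfp-1 is not in the chromodomain and histone methylation list.

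The next 3 gaps lay on the left and held few piRNA genes. IV 3732137 to 4103810 (372 kb), which reached into the first bin of the left stretch, held 81 protein-coding genes and 4 piRNA genes. 14 of its genes belong to the C-type lectin, F-box, MATH and BTB list, among them clec-67 and clec-68, and 6 to the chemoreceptors. The gap also held pcn-1 and cdc-73, which encode the replication clamp PCNA and a Paf complex subunit. IV 422829 to 790721 (368 kb) held 57 protein-coding genes and 1 piRNA gene, including rpl-15, mrpl-55 and mrpl-2. IV 2701058 to 2988026 (287 kb) held 50 protein-coding genes and 3 piRNA genes, with 6 of the lectin and F-box list.

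The 20 highest scores ran from 504.68 to 1147.85, with widths of 3236 to 8588 bp. Of these 20 peaks 3 lay in the left stretch, 1 in the right-arm stretch and 16 elsewhere. The highest, IV 4800410 to 4806043, spanned dpf-7 and dpf-5, which belong to the dipeptidyl peptidase IV family, and was twelfth of the whole list. The second, IV 8978560 to 8984582 (941.23), lay over pdzd-8, whose mammalian homologue is a lipid transfer protein of the endoplasmic reticulum, and the collagen gene col-119. The third, IV 11595858 to 11601697 (851.87), was wholly inside mig-38. The fourth, IV 11125788 to 11131956 (815.99), lay over swsn-4, the ATPase subunit of the SWI/SNF chromatin remodeller, and ard-1, a dehydrogenase gene. The fifth (780.00) lay inside M116.5 and the sixth (724.25) inside dnc-1, which encodes the large dynactin subunit.

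IV 4387105 to 4393104 (699.35) lay over rpl-7A, a gene of the large ribosomal subunit, tald-1, the transaldolase gene, and set-21. IV 10921421 to 10926855 (714.15) lay over rbr-2, which encodes an H3K4 demethylase. IV 4707932 to 4712482 (718.73) lay over cif-1, whose product joins the COP9 signalosome and translation factor eIF3, and yars-2, a mitochondrial tyrosyl-tRNA synthetase gene. The peak of 8588 bp at IV 11579857 to 11588444 (715.50) covered rib-1, a heparan sulfate synthesis gene, and F12F6.1. Further ones lay at sart-3 of spliceosome recycling (664.65), mask-1 (646.31), sec-10 of the exocyst (597.33), gon-4 (579.82), vps-8 of endosomal tethering (537.39), him-6 (520.46), fln-1, a filamin gene (508.57), and ints-13 of the Integrator complex (504.68).

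Width and score parted at some genes. The widest peak, IV 7134661 to 7144271, lay wholly inside hecd-1, which encodes a large HECT ubiquitin ligase, and scored only 118.49. The fourth widest, IV 4248143 to 4256707 (8565 bp, score 189.17), lay wholly inside ama-1, the gene of the large RNA polymerase II subunit. The second widest, IV 12079467 to 12088227 (320.03), took in lex-1, repo-1, rbm-34 and F11A10.6. Over mask-1, which encodes an ankyrin repeat protein, 3 adjacent peaks scored 70.51, 646.31 and 467.28, and the last, of 8050 bp, reached nfu-1.

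**Figure D4:**
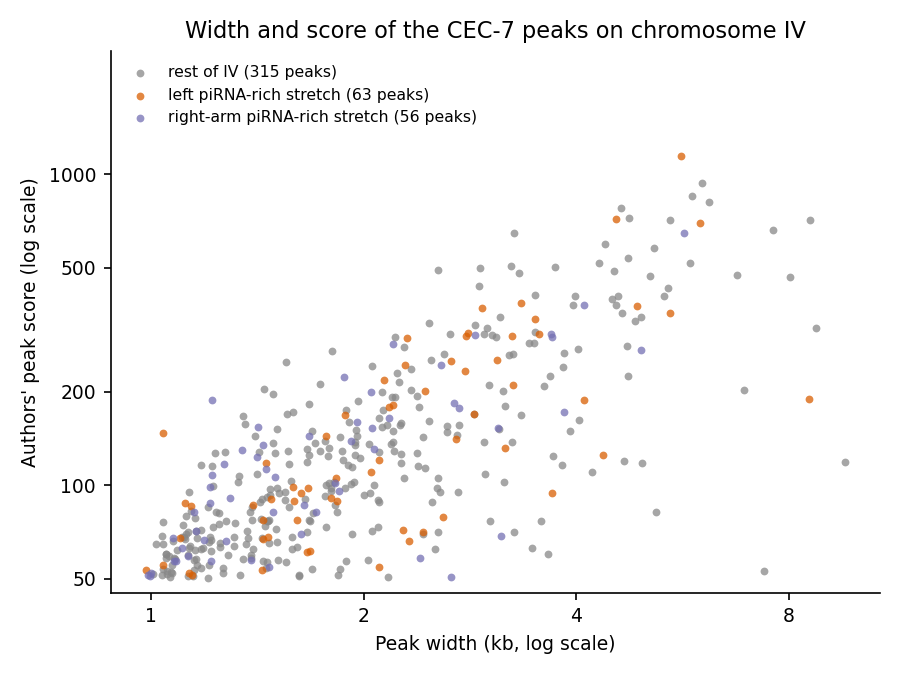
Width in kb (x axis, log scale) and the authors' score (y axis, log scale) of each of the 434 peaks on IV, 1 point per peak, coloured by region. Peaks of the 3 regions overlap over most of both ranges, and the widest peak, of 9611 bp, has a score of only 118.49.

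The right-arm stretch held 56 of the 434 peaks and 1 of the 20 highest scores. That peak, IV 14788031 to 14793718 (647.29), ended the 711 kb gap and lay over melo-1, gdi-1, which encodes the Rab GDP dissociation inhibitor, and coq-3, a ubiquinone synthesis gene. It ranked twelfth on IV. The peak on the other side of that gap lay at ccar-1 (272.77). The next strongest lay at hsp-1, the constitutive Hsp70 gene, and nra-1 (380.23), then at mau-8, emc-3 and rab-19 (306.13), at rif-1.1 (305.15) and at micu-1, kdp-1 and csn-6 (300.54). Here micu-1 encodes a mitochondrial calcium uptake protein and csn-6 a COP9 signalosome subunit. A group of 7 peaks between IV 17104190 and 17126114 covered the splicing factor genes sfa-1 and uaf-2, which encode the branch point protein SF1 and the small U2AF subunit. It also covered cyn-13, Y116A8C.33 and itsn-1, the intersectin gene, with scores from 56.92 to 283.80. Within the left stretch the 2 leading peaks after those named above lay at miro-1 (384.29) and lin-45 (376.54).

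Gene lists were read against the 16.1% of all protein-coding genes of IV at a peak. They were made by gene name with earlier results of these data known, and no list was tested. The chromodomain and histone methylation list and the meiosis list had the highest shares. Of 13 genes of the chromodomain and histone methylation list on IV, 10 were at a peak (76.9%), and all 10 overlapped the peak after trimming. On the other chromosomes it was 26 of 58 (44.8%). A single peak, IV 7576329 to 7579501 (180.00), covered cec-4 and cec-5, neighbours that encode chromodomain proteins, the first of them an anchor of methylated H3K9 chromatin at the nuclear envelope. A further chromodomain gene, cec-6, had a peak with a score of 253.17, and rbr-2 (714.15), set-21 (699.35), set-23 (136.28), jmjd-1.2 (125.43) and spr-2 (77.48) also had one. Membership rests on gene names, and whether each member, spr-2 for example, acts in histone methylation was not checked. Both set-9 (53.41) and set-26 (106.04) had a peak too. They are near copies of each other, and how reads with several positions were treated is not given, so their peaks are uncertain. The 3 of the list without a peak were cec-2, set-15 and mes-6, a Polycomb complex gene. The list does not hold every gene of this kind on IV. Those outside it, at a peak or not, were not counted, among them cfp-1 in the second longest gap.

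Of 16 genes of meiosis and recombination 9 were at a peak (56.2%), or 6 after trimming. On the other chromosomes it was 30 of 43 (69.8%). They were him-6, the BLM helicase gene (520.46), rad-54.L2 (379.03), rec-8, a meiotic cohesin gene (160.00), spo-11, which makes double-strand breaks (149.00), and msh-5, a crossover gene (68.68). The others were zim-3 (158.69) and, within the tolerance only, zim-2, which shares its peak, dsb-1 (347.07) and htp-2 (68.11). The zim genes and him-8 are adjacent and encode the zinc finger proteins that bind pairing centres of the chromosomes, and neither zim-1 nor him-8 was at a peak. Of the 5 genes of the piRNA pathway and germ granules on IV, pgl-1, a P granule gene, had a weak peak (54.63) and rde-11, an RNA interference gene, one of 143.99. The Argonaute genes csr-1 and alg-3 and the nuclease gene rde-8 had none. Elsewhere 38 of 65 genes of this list were at a peak (58.5%).

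Genes of protein synthesis, folding and degradation on IV were at peaks less frequently than those elsewhere, without a test of the difference. The meiosis and piRNA pathway lists above also had lower shares on IV, so this was not particular to them. Of 17 cytosolic ribosomal protein genes only rpl-7A (699.35) and rps-24 (86.29) were at a peak (11.8%), against 13 of 61 on the other chromosomes (21.3%). Of 11 mitochondrial ones, 3 were (27.3%), namely mrpl-42 (252.90), mrps-33 (150.40) and mrpl-1 (76.44), against 33 of 60 elsewhere (55.0%). Of 13 splicing, RNA helicase and translation factor genes, ddx-46, sfa-1, uaf-2 and, within the tolerance only, prp-18 were (30.8%), against 57 of 94 (60.6%). The 3 proteasome genes of IV, pbs-1, rpn-1 and rpn-7, had none, against 12 of 30 elsewhere (40.0%). Heat shock and DNAJ genes had 2 of 8 (25%), hsp-1 (380.23) and dnj-11 (61.43), against 22 of 47 (46.8%).

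Chemoreceptor, lectin, F-box and neuropeptide genes had few or no peaks, and collagens and nuclear hormone receptors had more. Of 152 chemoreceptor genes 1 was at a peak (0.658%), sru-20, and only through the tolerance beside the peak of him-6. Of 83 C-type lectin, F-box, MATH and BTB genes it was 1 (1.2%), clec-178, under the peak it shares with csn-5 and skn-1. No neuropeptide gene of 21 was at a peak. Nuclear hormone receptor genes had 2 of 33 (6.06%), nhr-66 (93.25) and nhr-274, whose peak was the weakest of IV (50.25). Collagens had 5 of 45 (11.1%), col-119, col-123, col-111 and, within the tolerance only, col-121 and col-132. Their shares elsewhere were 0.702% for chemoreceptors, 2.64% for the lectin and F-box list, 2.38% for neuropeptides, 1.69% for nuclear hormone receptors and 5.38% for collagens.

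Sperm genes and histones were also low. Of 52 sperm genes, which include 18 msp genes of the major sperm proteins, 2 were at a peak (3.85%). These were spe-44, which encodes a regulator of spermatogenesis genes (63.14), and spe-36, at the end of the broad peak over rib-1. None of the 18 msp genes was at a peak. Of 26 histone genes 2 were within the tolerance (7.69%), his-61 and his-47, and none was overlapped. The median span of the sperm and of the histone genes was 384 bp, and of all genes under 1 kb on IV 6.80% were at a peak. Both families also consist of near copies, for which the treatment of reads with several positions matters and is not given.

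**Figure D5:**
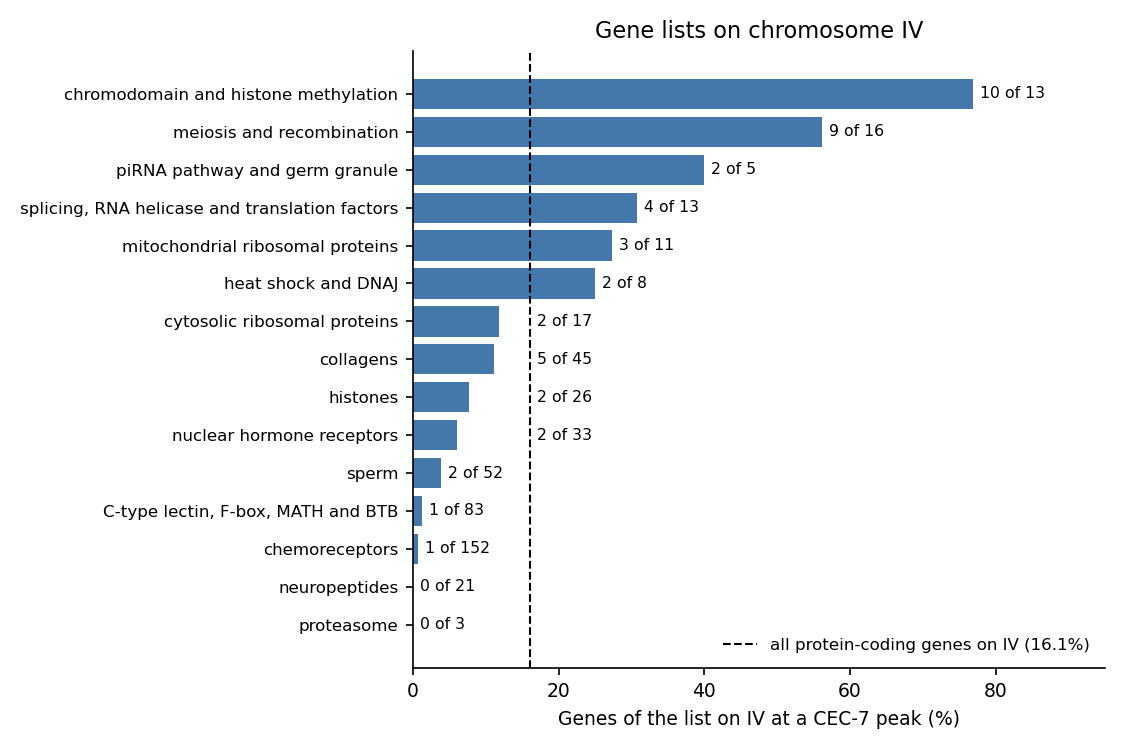
Share of the genes of each list on IV that were at a CEC-7 peak (x axis, percent), with the counts beside the bars and a dashed line at the 16.1% of all protein-coding genes on IV. The chromodomain and histone methylation list leads with 10 of 13, while chemoreceptors have 1 of 152.

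Of the genes annotated only as ncRNA on IV, 62 of 1057 were at a peak (5.87%), against 3.25% of those on the other chromosomes. For comparison, 7.94% of the bases of IV lay within 500 bp of a peak. Of protein-coding genes under 1 kb on IV, 6.80% were at a peak. On IV none of 71 tRNA, 50 miRNA and 41 snRNA genes was at a peak, against 2.22%, 8.10% and 3.41% of those classes on the other chromosomes. Of 59 snoRNA genes, 9 were (15.3%), against 16.4% elsewhere. All 9 lay inside the span of a protein-coding gene at the same peak. Their hosts were rpl-7A, with 2 snoRNA genes, fln-1, ech-5, cfim-2, catp-8, rbm-34, uaf-2 and hsp-1. Pseudogenes were at a peak in 9 of 358 cases (2.51%), against 3.84% elsewhere. Of the 8 peaks without a protein-coding gene in reach, 4 lay at pseudogenes, such as IV 7797105 to 7800701 (209.04) at klp-10. The other 4 included IV 15188305 to 15189719 (153.94), IV 13734194 to 13737294 (152.99) and IV 12023490 to 12025260 (73.41).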

How the data were processed

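1 ChIP library and 1 input library were labelled, and the deposited peak list of the ChIP library was used. Per the file headers, its peaks were called with MACS on WormBase WS220. The submitters' processing notes name BWA and ce10. The deposited score per peak is the authors', of unstated scale, and for depth, settings and the use of the input nothing is given in the sources used here. Genes were placed by span within 500 bp, from RefSeq's table for WBcel235, and no gene coordinate is printed. That table gives no strand and no sequence, so the planned placement by gene start, the promoter GC content and the motifs were not run, and the gene span replaced the start. Named genes were drawn from those at the 20 strongest and 5 widest peaks of IV and the 5 strongest of each piRNA-rich stretch (span overlapping the peak trimmed by 500 bp), members of the 15 name-based lists, and genes in the 5 longest gaps. Genes singled out within or beside gaps, in domains, at peaks without a protein-coding gene, with several peaks, and as hosts of piRNA or snoRNA genes were chosen after their values were seen. 1 gene that the rule selects is not reported here. Members and lists were chosen with earlier results of these data known, and 3 name patterns were corrected after the first counts to drop genes of other families, such as dpy-26 and plk-3. The end of the last gene served as the length of a chromosome. Shares have exact Clopper-Pearson and densities exact Poisson 95% intervals. The overlap code was checked on made-up intervals. Tables were handled with pandas 2.3.3 and NumPy 2.4.6 in Python 3.11.15, intervals came from SciPy 1.17.1, and plots from matplotlib 3.10.9.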

Additional observations from a re-analysis of the deposited data

How the results depend on the processing

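No paired analysis was possible because there is 1 ChIP list and no values of the input were used. A shift of all peaks by 100 bp, added after the data were seen, gave 16.0% and 16.2% of protein-coding genes at a peak in place of 16.1%, and 0.109% and 0.0951% of piRNA genes in place of 0.0884%. The protein-coding share was 13.7% without tolerance, 12.3% with peaks trimmed by 500 bp, 8.75% with the 50% of all peaks that score highest, and 11.4% by gene midpoint, an alternative added later. The piRNA share was 0.0272% with trimmed peaks and, added later, 2.26% within 5 kb. Peak density on IV was 24.8 per Mb, 20.5 after merging peaks less than 1000 bp apart and 10.6 among the higher-scoring peaks, with 5.74% of bases covered. The ratio of the right-arm stretch to the remainder was 0.278 when started at 13.5 Mb, and 0.354 to 0.468 under the other alternatives. Peaks with a neighbour within 5 kb were 50.7%, or 25.9% after merging, 22.6% among the higher-scoring and 71.7% within 10 kb. The longest gap was 1.67 Mb among the higher-scoring peaks. Fewer or narrower peaks lower such shares by construction. The share of peaks at a protein-coding gene stayed between 97.2% and 98.2%. The alternatives for promoters and gene starts were not run. Unknown depth limits what gaps mean.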

Other observations

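Some long genes of IV had several listed peaks, and those with 4 or 5 lay on the left. Of 449 genes overlapped by a peak, 363 had 1, 66 had 2, 18 had 3, 1 had 4 and 1 had 5. F53H1.4, with a span of 18.1 kb, had the 5 peaks, between IV 1311891 and 1325987, with scores from 52.32 to 204.51. Some of them nearly adjoined, such as IV 1321612 to 1322961 and IV 1322963 to 1325987. The counts are thus of list entries, not of merged regions. The 4 peaks of npp-8, a nucleoporin gene with a span of 27.9 kb, lay between IV 1569125 and 1587724, with scores from 50.44 to 201.65. When peaks with gaps under 5 kb were joined, 250 domains resulted on IV. A single peak made up 151 of them, and 10 had at least 5 peaks. The longest domain, of 32.1 kb at IV 1293923 to 1325987, joined 9 peaks over plst-1, the plastin gene, ddx-46, a splicing helicase gene, and F53H1.4. The second, of 30.1 kb at IV 10358290 to 10388435, joined 6 peaks over 8 genes that include sir-2.1, the sirtuin gene, iars-1, an isoleucyl-tRNA synthetase gene, and mask-1.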
